A study of Gallus gallus with 16 samples.

Results

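Diet H was compared with diet E in the jejunum of male broiler chickens at day 21. The comparison took in every probe set of a chicken whole-transcript array and rested on 8 of the 16 birds profiled: 4 on diet H and 4 on diet E, chosen by the dietary letter that the labels give each bird. The other birds, 4 on diet A and 4 on diet F, entered the model only to share its estimate of the spread. The series title names saponins and a blend of essential oils of 4 herbs and spices (oregano, thyme, rosemary and star anise) as feed additives. The labels do not say which letter received which additive, so the diets are called by their letters here, and the question is only how jejunal transcripts of birds on H differed from those of birds on E. Both groups were of 1 sex and 1 age. The labels do not say how birds were penned. The p-values take each bird as independent and rest on the spread between birds within the 4 diets. The tissue was total jejunum RNA: fewer cells of a type and less RNA per cell cannot be told apart in it.

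The jejunum is the middle stretch of the small intestine and its main site of nutrient uptake. Enterocytes on the villi cut peptides and sugars with brush border enzymes and take up the products through transporters, while goblet cells secrete mucus and enteroendocrine cells release gut hormones. New cells come from dividing crypts, and the connective tissue core beneath holds fibroblasts, vessels and many immune cells. Epithelial cells also sense microbes and injury and answer with interferon, NF-kappa-B and stress programmes.

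The labelled tissue was checked against its markers. The enterocyte genes SLC5A1 (sodium-glucose cotransporter), SI (sucrase-isomaltase), ANPEP (aminopeptidase N), FABP2 and APOA4 lay between 11.62 and 13.06 on the log2 scale in the 8 birds, and the mucin gene MUC2 between 12.96 and 13.35. Of the other goblet cell markers, AGR2, FCGBP and SPDEF lay between 8.77 and 13.21, but TFF3 only between 4.75 and 5.67. The pancreatic amylase gene AMY2A, at 3.84 to 4.67, lay near or below the arrays' lower quartiles, which ran from 4.45 to 4.61. CELA1, another pancreatic marker, read 5.49 to 5.89, above those quartiles and below the array medians of 5.94 to 6.10. The ileal bile acid genes were not uniformly low: SLC10A2 lay between 2.62 and 5.01, and FABP6 between 5.18 and 9.34.

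Birds differed from each other within a diet about as much as between diets. Pearson correlations over all probe sets ran from 0.952 to 0.985 among the 8 arrays, with a mean of 0.974 within a diet and 0.973 between diets. Array medians lay between 5.94 and 6.10. E replicate 2 stood apart on the first principal component, which held 32.7% of the variance, with a score of -51.0 where the other E birds lay between -25.9 and 27.5. H replicate 4 lay at the other end of that component, at 42.5, and the other H birds between -7.7 and 1.0. H replicate 3 stood apart on the second, which held 19.0%, with a score of -51.4. The labels' title numbers fall into a lower and an upper range, each with 2 birds of each diet: replicates 1 and 2 of both diets carry lower numbers and replicates 3 and 4 upper ones. What the ranges stand for is not given in the sources used here. Of the 39 gene lists described below, 23 had medians of opposite sign in the lower and the upper range and 16 turned sign when some single bird was left out, 9 of them without E replicate 2.

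No probe set passed the adjusted threshold of 0.05 between H and E in limma's moderated test (0 of 20804 probe sets, 0%). The smallest adjusted p was 0.255. At an unadjusted p under 0.05 there were 1981 probe sets, which is 9.52% and compares with 1040 if no probe set differed. Ordinary two-sample statistics on the 8 arrays alone called 0 after adjustment and placed 1775 probe sets at an unadjusted p under 0.05. Every gene below is therefore described by its values: higher and lower refer to the mean of 4 birds, differences are on the log2 scale as H minus E with the standard error from limma, and none of them passed the adjusted test. Taking 1 probe set per gene, 516 of 11528 genes were higher in H at an unadjusted p under 0.05 (4.48%) and 532 were lower (4.61%). After each array was centred on its median, these counts were 808 and 301, so the share higher among them moved from 49.2% to 72.9%. All 4 H birds lay above all 4 E birds for 309 genes (2.68%) and below them for 311 (2.7%). Genes picked below for a small p in the same birds lack overlap more often through that choice.

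The gene with the smallest p was PURG, which encodes a member of the Pur family of proteins that bind purine-rich single-stranded DNA and RNA. PURG read 6.60, 6.59, 6.43 and 6.36 in the E birds and 7.12, 7.19, 7.07 and 7.12 in the H birds. The groups did not overlap, and the H birds spread over little more than 0.1. The difference was 0.63 ± 0.10 (SE; limma, adjusted p = 0.255), or 1.55-fold if the deposited scale is log2. It was 0.56 in the lower title range and 0.70 in the upper. Diets A and F had means of 6.24 and 6.72, so F lay between E and H. A pair of probe sets with no gene name and identical values shared that adjusted p: they read 3.16, 3.14, 2.95 and 2.87 in E and 5.73, 5.57, 5.23 and 4.34 in H, a difference of 2.19 ± 0.38 that starts below the arrays' lower quartiles in E.

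ASPA, whose enzyme removes the acetyl group from N-acetylaspartate, had the largest difference among the named genes. It read 5.65, 5.06, 6.42 and 6.23 in E and 7.88, 7.48, 7.45 and 7.47 in H, with no overlap and a difference of 1.73 ± 0.36 (limma, adjusted p = 0.479). In diets A and F its means were 6.96 and 6.93, so E had the lowest mean of the 4 diets and H the highest.

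SLC38A2, a sodium-coupled transporter of small neutral amino acids whose mammalian form is made in larger amounts when amino acids run short, read 8.98, 9.83, 9.63 and 9.15 in E and 10.20, 11.02, 10.52 and 10.29 in H. All H birds lay above all E birds, by 1.11 ± 0.27 in the mean. ERRFI1, a feedback inhibitor of the EGF receptor, read 9.02, 8.98, 9.37 and 8.95 in E and 9.77, 9.90, 9.60 and 10.02 in H, a difference of 0.74 ± 0.20 with no overlap. It was 0.83 in the lower range and 0.65 in the upper.

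The other genes of the 12 with the smallest p on the higher side, to which ERRFI1 does not belong, act in quite different processes. IL4R, a receptor chain for interleukin-4, read 7.70, 7.65, 7.77 and 7.88 in E and 8.36, 8.41, 8.42 and 8.07 in H (difference 0.57 ± 0.12); a second probe set of the gene differed by 0.28. TLK2, a nuclear kinase that acts on histone chaperones, differed by 0.50 ± 0.11 with E birds between 8.59 and 8.78 and H birds between 9.08 and 9.24. RUBCNL, a regulator of autophagosome maturation in mammals, differed by 0.76 ± 0.18. WRN, a DNA helicase of the RecQ family, differed by 0.46 ± 0.12, and its 4 H birds lay within 6.97 to 7.00. EBAG9 (0.57 ± 0.13) and CCNL2, a cyclin of the splicing machinery (0.53 ± 0.13), were also without overlap. FAM204A was the only one of the 12 whose groups overlapped, at 0.69 ± 0.18, and selection by p in the same birds favours groups without overlap. The remaining pair were probe sets for microRNA genes: MIR1654-1 differed by 1.02 ± 0.24 from an E mean near the lower quartile of the arrays, and MIR20B by 0.59 ± 0.15 at 3.61 to 3.99 in E. Such probe sets read the whole labelled transcript, not the mature microRNA.

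On the lower side, the 12 genes with the smallest p were mostly of low or middling level. LOC420748 read 3.42, 3.52, 3.20 and 3.38 in E and 2.89, 2.95, 2.76 and 2.85 in H, below the lower quartile of every array in both diets. HIGD2A, which helps assemble respiratory supercomplexes, read 6.74, 6.66, 6.66 and 6.62 in E and 6.38, 6.24, 6.10 and 6.31 in H, a difference of -0.42 ± 0.10. Receptor genes were among them: BDKRB2, the B2 bradykinin receptor, differed by -0.73 ± 0.18, with E birds between 4.80 and 5.03 and H birds between 3.93 and 4.39, and VIPR2, a receptor for vasoactive intestinal peptide, by -0.44 ± 0.11. The H values of both lie under the arrays' lower quartiles. VIPR2 read 4.17 to 4.49 in E, where each bird also lay under the lower quartile of its own array. ZNF71, a zinc finger gene, read 7.86, 8.17, 7.68 and 7.91 in E and 7.39, 7.21, 7.32 and 7.45 in H. Its groups were apart by -0.56 ± 0.13. SDK2 and SHISA9, an adhesion protein and a glutamate receptor partner known from neurons, differed by -0.47 ± 0.11 and -0.54 ± 0.13. RPRM, a p53 target that halts the cell cycle in mammals, differed by -0.53 ± 0.13 and a second probe set of it by -0.30. ARID3C (-0.50 ± 0.12) and the scaffold gene DLG2 (-0.50 ± 0.13) completed the protein-coding genes. DLG2 lay under the arrays' lower quartiles in both diets, at 3.87 to 4.28 in E and 3.52 to 3.87 in H. MIR1724 and MIR1631 had differences of -0.78 ± 0.19 and -0.63 ± 0.14. No groups overlapped among these 12, which their selection by p in the same birds favours.

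**Figure D1:**
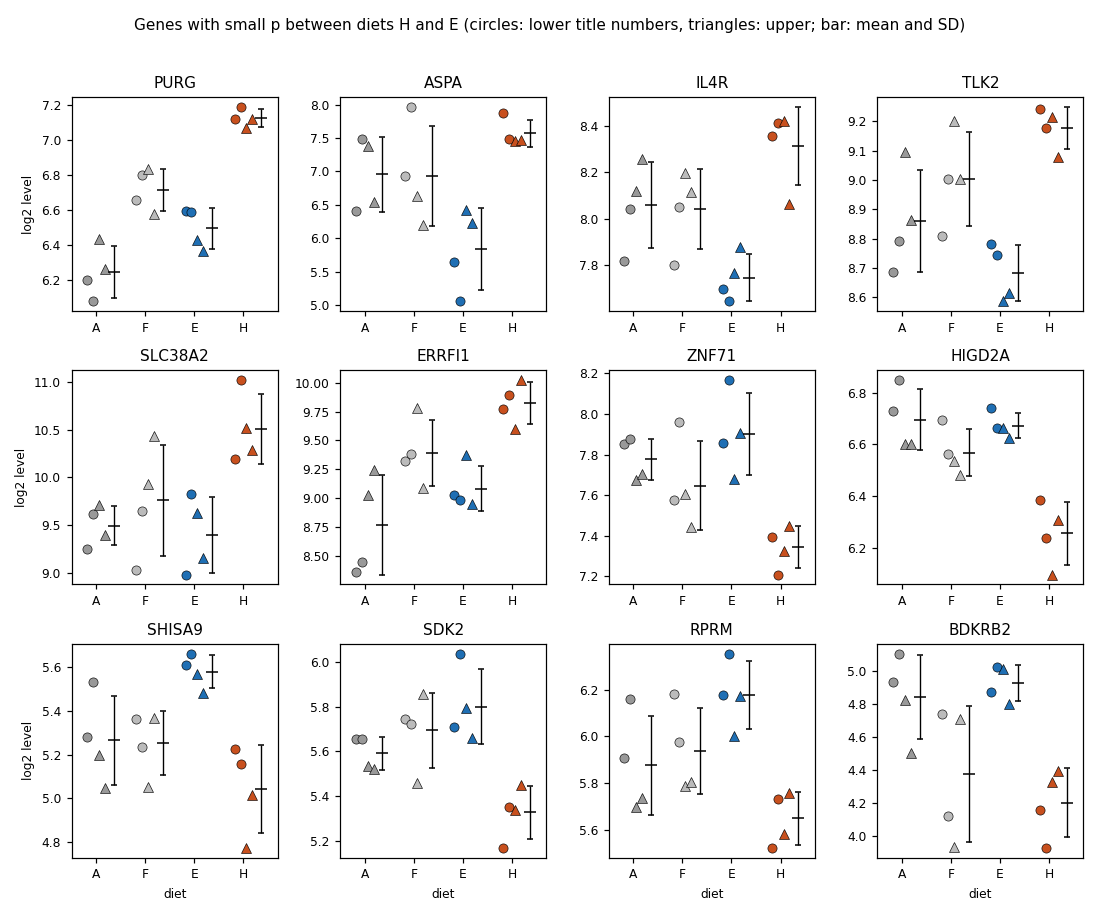
Log2 level of 12 genes in each of 16 birds by diet (A, F, E, H), with the mean and SD of 4 birds beside the points; circles carry lower title numbers and triangles upper ones. In PURG the 4 H birds sit between 7.07 and 7.19, above every E bird, and in BDKRB2 they sit between 3.93 and 4.39, below every E bird.

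By size rather than p, the genes that differed most among those at an unadjusted p under 0.05 added F3, NOXO1, KCNK17 and CXorf23 on the higher side. F3, tissue factor, which starts blood coagulation, read 6.88, 7.54, 6.72 and 7.01 in E and 8.44, 7.73, 9.07 and 8.16 in H, a difference of 1.31 ± 0.57 without overlap. NOXO1, an organiser of the epithelial NADPH oxidase, read 7.04, 6.03, 6.03 and 6.60 in E and 7.09, 8.55, 6.72 and 8.07 in H, where 1 H bird lay inside the range of E, and differed by 1.18 ± 0.36. KCNK17, a potassium leak channel, differed by 1.09 ± 0.43 and its groups overlapped, while CXorf23 differed by 1.08 ± 0.35 and its groups did not. On the lower side ALB, serum albumin, differed by -1.06 ± 0.48, but it read 6.60 in E replicate 3 and 3.91 to 4.37 in the other E birds, against 3.02 to 4.31 in H. That difference was -0.21 in the lower title range and -1.92 in the upper, and it was -0.45 without E replicate 3. The probe set named gga-mir-3538 differed by -0.97 ± 0.36, TMSB15B, a thymosin of the actin cytoskeleton, by -0.91 ± 0.41, LOC100858603 by -0.85 ± 0.34, TCF21, a transcription factor of mesenchyme, by -0.85 ± 0.38 and the small GTPase RAB42 by -0.79 ± 0.22. TMSB15B and TCF21 had their highest values in E replicate 2, at 11.60 and 7.03.

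The direction of a difference went with the level of a gene. Over all genes 48.2% were higher in H and the median difference was -0.01. The genes were split into 4 equal classes by their mean level over the 16 birds. In the class of lowest level 33.0% were higher in H, with a median of -0.09, and in the next class 36.9%, with -0.08. In the third class 59.5% were higher (median 0.06) and in the class of highest level 63.5% (median 0.07). With quantile-normalized arrays the shares narrowed to 39.2%, 44.2%, 54.2% and 57.7%, and with median-centred arrays they were 43.8%, 46.1%, 68.8% and 73.1%, in the same order. Without E replicate 2 and H replicate 3 together the shares also narrowed, to 42.3%, 41.6%, 54.9% and 59.4%. The counts for each gene group below are to be read beside the shares for their level. Counts at an unadjusted p under 0.05 are to be read beside the 4.48% of all genes higher and 4.61% lower. After median centring these shares became 7.01% and 2.61%. Of the 39 lists, 6 with medians within 0.05 of 0 turned sign under one of these scalings: the goblet cell, NRF2, tight junction, fatty acid synthesis, fatty acid oxidation and endoplasmic reticulum lists.

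**Figure D2:**
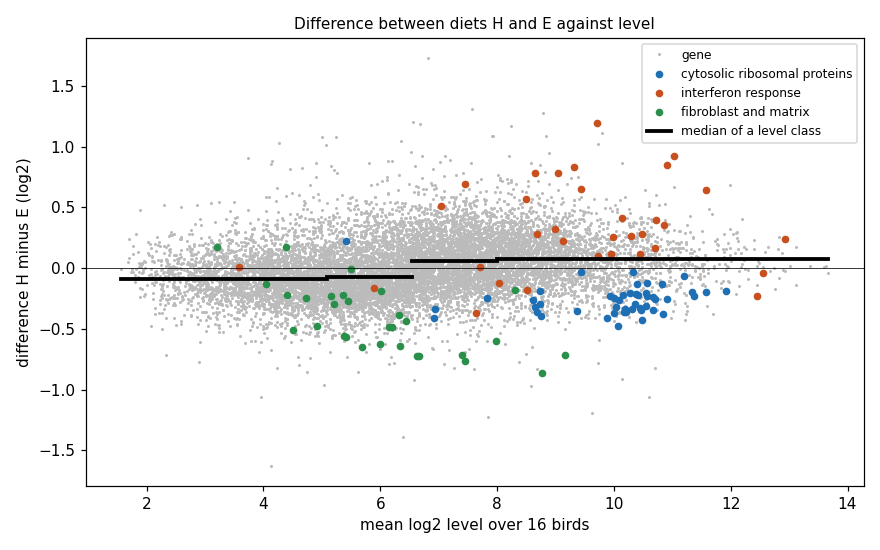
Difference H minus E (log2) of each of 11528 genes against its mean log2 level over 16 birds, with 3 gene lists in colour; black bars give the median of each of the 4 level classes. The bars step from -0.09 to 0.07, the ribosomal protein genes lie below 0 at high level, and interferon response genes lie mostly above 0.

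Inflammatory and NF-kappa-B genes were divided between the diets as a list, while single regulators of the pathway had higher means in H. NF-kappa-B factors are held in the cytoplasm until a microbial or cytokine signal frees them, and they then switch on both inflammatory genes and their own inhibitors. Of 36 inflammatory and NF-kappa-B genes measured, 19 were higher and 17 lower, with a median of 0.03, and 24 of the 36 belong to the lower 2 level classes. The median was -0.02 in the lower title range and 0.24 in the upper, and -0.02 without E replicate 4. At an unadjusted p under 0.05, 6 were higher and 1 lower, and 10 and 1 after median centring. NFKB1, the p105/p50 subunit, read 8.07, 7.83, 8.20 and 8.19 in E and 8.29, 8.53, 8.66 and 8.74 in H (0.48 ± 0.14). NFKBIZ, an inducible nuclear cofactor of the pathway, read 8.77, 8.89, 8.07 and 8.35 in E and 9.36, 10.08, 9.21 and 9.21 in H (0.95 ± 0.28). TNFAIP3, the A20 enzyme that shuts the pathway off, read 7.75, 8.04, 7.51 and 7.42 in E and 8.15, 8.34, 8.22 and 8.19 in H (0.55 ± 0.16). In all 3 genes every H bird lay above every E bird. The epithelial cytokine IL18 differed by 0.82 ± 0.27 with overlapping groups. The gene on the lower side was TLR2A, a Toll-like receptor for bacterial lipoproteins, at -0.40 ± 0.14.

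Immediate early genes are transcribed within minutes of a growth factor or stress signal. Of 22 measured, 14 were higher and 8 lower, with a median of 0.19, and 18 lie in the upper 2 level classes. The median was 0.03 without H replicate 4 and 0.10 without E replicate 2. At an unadjusted p under 0.05, 4 were higher and 0 lower, and 6 and 0 after median centring. NR4A3, an orphan nuclear receptor, read 6.16, 6.14, 6.32 and 6.46 in E and 6.37, 6.98, 7.59 and 7.51 in H, a difference of 0.84 ± 0.24 with 1 H bird inside the E range. DUSP6, a phosphatase that turns off ERK, differed by 0.55 ± 0.17 and the zinc finger factor EGR1 by 0.34 ± 0.12, both with overlap. ATF3, a stress-induced factor, read 9.14, 9.58, 9.15 and 9.26 in E and 10.63, 9.70, 10.84 and 10.07 in H, a difference of 1.02 ± 0.39 without overlap. Of 20 genes of the EGF receptor pathway 11 were higher and 9 lower, with a median of 0.05 that was -0.09 without H replicate 4. ERRFI1 was the one at an unadjusted p under 0.05 on the higher side, and the ligand BTC (-0.27 ± 0.10) and the receptor ERBB2 (-0.25 ± 0.11) were on the lower side.

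Interferon response genes had a higher mean in H, and the size of the difference followed the birds. They encode sensors of viral RNA and antiviral effectors. Of 33 measured genes 27 were higher and 6 lower, with a median of 0.28 beside -0.01 over all genes, and 31 of them lie in the upper 2 level classes, where 59.5% and 63.5% were higher, or 68.8% and 73.1% after median centring. At an unadjusted p under 0.05, 5 were higher and 0 lower, and 6 and 0 after median centring. IFIH1, which encodes the RNA sensor MDA5, read 8.40, 8.42, 7.79 and 8.11 in E and 9.11, 8.67, 9.40 and 8.68 in H (0.79 ± 0.29). EIF2AK2, the kinase PKR, read 9.20, 9.15, 8.71 and 8.61 in E and 9.89, 9.54, 10.16 and 9.41 in H (0.83 ± 0.34). Neither gene's groups overlapped, and PARP9 (0.65 ± 0.26) did not overlap either. MX1, the antiviral GTPase, read 11.07, 11.01, 9.84 and 10.16 in E and 12.07, 11.47, 11.74 and 10.49 in H, where H replicate 4 lay below 2 E birds, and EPSTI1 (0.78 ± 0.33) had the same overlap. The mean level of the 33 genes was 9.54, 9.55, 8.89 and 8.89 in the E birds and 9.87, 9.57, 9.79 and 8.98 in the H birds. Each H bird other than replicate 4 lay above every E bird. The median difference was 0.11 in the lower title range and 0.49 in the upper, where both E birds were low. Leaving out 1 bird at a time, the median lay between 0.14 (without E replicate 4) and 0.42 (without E replicate 1). Diets A and F had mean levels of 9.50 and 9.55, close to the H mean of 9.55, and E had the lowest mean, at 9.22.

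**Figure D3:**
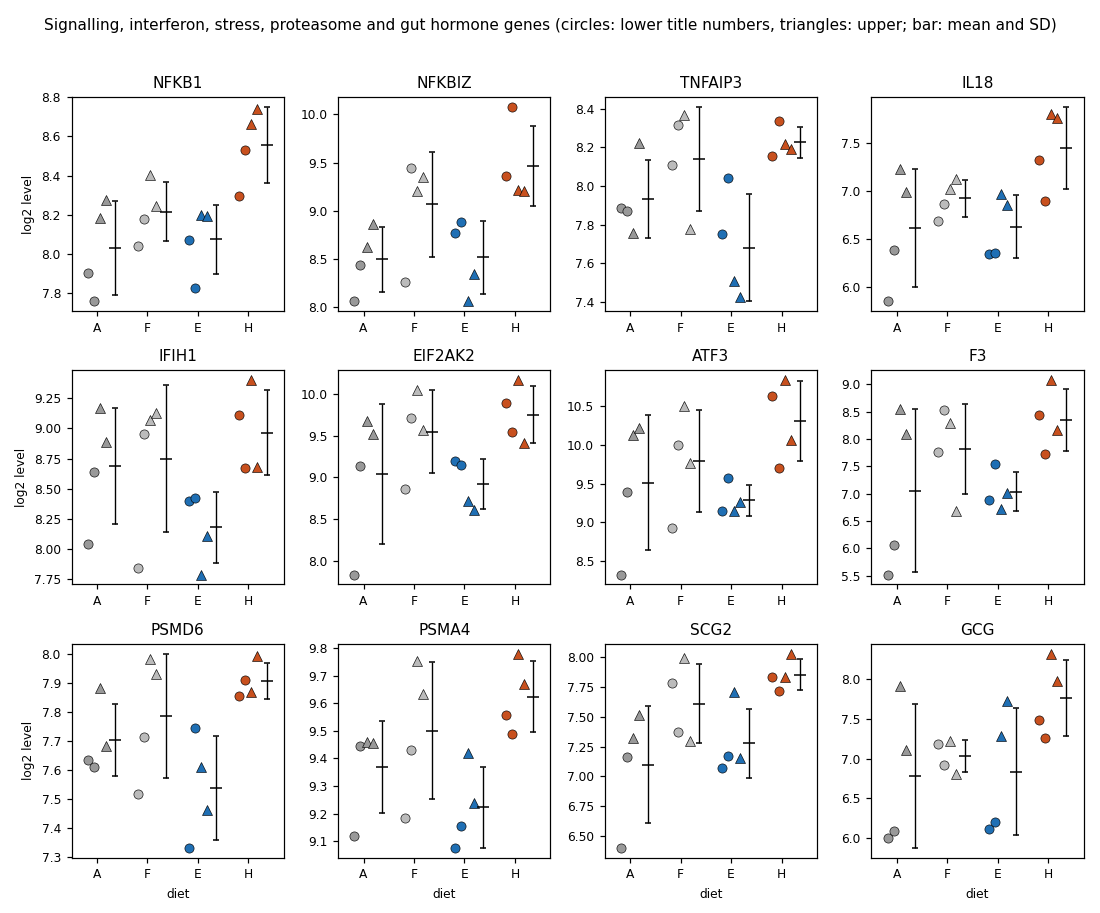
Log2 level of 12 genes of the NF-kappa-B, interferon, stress, proteasome and gut hormone groups in each of 16 birds by diet, with the mean and SD of 4 birds beside the points; circles carry lower title numbers and triangles upper ones. The H birds of NFKBIZ sit between 9.21 and 10.08 above E birds between 8.07 and 8.89, while those of GCG overlap with E.

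As a list, proteasome genes were higher about as often as other genes of their level. Proteasome subunits form the barrel that degrades tagged proteins and the cap that feeds it. Of 22 measured, 14 were higher and 8 lower, with a median of 0.04, and 20 lie in the highest level class, where 63.5% of all genes were higher. The median was -0.02 in the lower title range and 0.09 in the upper, and -0.03 without E replicate 4. The 4 subunits at an unadjusted p under 0.05 were all higher and all without overlap: PSMD6 (0.37 ± 0.12), PSMD12 (0.43 ± 0.14) and PSMD14 (0.47 ± 0.16) of the cap, and PSMA4 of the barrel, which read 9.08, 9.16, 9.42 and 9.24 in E and 9.56, 9.49, 9.78 and 9.67 in H (0.40 ± 0.13). In the endoplasmic reticulum group 17 of 26 genes were higher (median 0.03, and -0.05 without H replicate 1), and 22 lie in the upper 2 level classes. The median of this group was -0.03 in the lower title range and 0.20 in the upper. Besides ATF3, the master factor of the group, ATF4, differed by 0.28 ± 0.12 and the co-chaperone DNAJC3 by 0.20 ± 0.09. The serine synthesis enzyme PSAT1 was lower, by -0.34 ± 0.12, at 3.34 to 4.06 in the 8 birds. Of 20 heat shock genes 16 were higher and 4 lower, with a median of 0.14. In the lower title range 10 of the 20 were higher (median 0.05) and in the upper 17 (median 0.25). In the upper 2 level classes, where 59.5% and 63.5% of all genes were higher, lie 14 of the 20. HSPA4L (0.46 ± 0.21) was the one at an unadjusted p under 0.05, and HSPA4 read 7.50, 7.89, 7.92 and 7.85 in E and 8.08, 7.95, 8.31 and 8.09 in H, without overlap.

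Genes for nutrient uptake split. Of 26 amino acid and peptide transporters 20 were higher and 6 lower, with a median of 0.18. In the upper 2 level classes lie 16 of the 26. There 59.5% and 63.5% of all genes were higher, or 68.8% and 73.1% after median centring. SLC38A2 was the one at an unadjusted p under 0.05, followed by SLC38A4, of the same family (0.45 ± 0.23), and SLC6A6, the taurine transporter (0.38 ± 0.21), both with overlap. The mean level of the 26 genes was 7.67, 7.68, 7.48 and 7.51 in E and 7.91, 7.78, 7.85 and 7.61 in H, and the median was 0.14 in the lower range and 0.24 in the upper, and 0.10 without H replicate 1. The main peptide transporter of the brush border, SLC15A1, read 11.74, 11.38, 11.47 and 11.30 in E and 11.48, 11.20, 11.57 and 11.77 in H (0.03 ± 0.21). SLC5A1 read 12.60, 12.23, 12.59 and 12.77 in E and 12.59, 12.38, 12.60 and 12.89 in H (0.07 ± 0.14). The diets overlapped in both genes.

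Brush border peptidases and sugar genes were evenly divided in the pooled birds, at 8 of 16 and 7 of 14 higher, with medians of 0.01 and 0.01. The title ranges differed: 13 of the 16 peptidases were higher in the lower range (median 0.16) and 5 in the upper (-0.13), and 11 of the 14 sugar genes in the lower (0.08) and 6 in the upper (-0.10). The peptidase median lay between -0.16 (without E replicate 2) and 0.17 (without E replicate 4) with 1 bird left out, and the sugar median between -0.10 and 0.09 without the same birds. DPP4, a dipeptidyl peptidase, read 10.11, 9.15, 11.05 and 11.18 in E and 10.43, 10.54, 10.94 and 11.11 in H, and the low value was that of E replicate 2. SLC2A9, a urate and hexose transporter, differed by 0.62 ± 0.34 with overlap. DPP4 and SLC2A9 had the highest differences of their lists. The lowest were those of TMPRSS15 among the peptidases (-0.53) and of SLC2A5 among the sugar genes (-0.36). At an unadjusted p under 0.05, 0 genes were higher and 1 was lower in each of these lists, and 0 and 0 after median centring. Of 23 lipid absorption genes 13 were higher (median 0.07), but the ranges differed, with 18 higher in the lower (median 0.19) and 5 in the upper (-0.20), and the median was -0.06 without E replicate 2. Single genes included FABP2, the intestinal fatty acid carrier, at 0.29 ± 0.13 and APOA5 at -0.49 ± 0.20. The ileal bile acid binder FABP6 read 5.85, 7.04, 5.75 and 6.13 in E and 9.34, 6.69, 8.36 and 5.18 in H, so H replicates 1 and 3 carried its difference of 1.20 ± 0.82.

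Sterol synthesis and uptake genes were lower in H, and mainly against a single E bird. Cholesterol synthesis runs from HMG-CoA through squalene to cholesterol. Of 15 measured genes 2 were higher and 13 lower, with a median of -0.29, although 14 of them lie in the highest level class, where most genes were higher. At an unadjusted p under 0.05, 2 were lower and 0 higher, and 0 and 0 after median centring. FDFT1, squalene synthase, read 10.79, 9.70, 9.48 and 9.50 in E and 9.11, 9.49, 9.41 and 9.10 in H (-0.59 ± 0.26), so that only E replicate 1 stood well above the rest. DHCR7, the last enzyme of one branch, differed by -0.31 ± 0.13 with overlap. The list's mean level was 9.99 in E replicate 1 and 9.40 to 9.50 in the other E birds, against 9.11, 9.30, 9.57 and 9.45 in H. The median was -0.54 in the lower title range and 0.00 in the upper, and -0.13 without E replicate 1. Fatty acid synthesis genes (4 of 11 higher, median -0.03) and fatty acid oxidation genes (10 of 20 higher, median 0.00) had no gene at an unadjusted p under 0.05, and neither did the 32 genes of xenobiotic oxidation, conjugation and efflux (17 higher, median 0.02). The oxidation list followed the uptake lists, with 15 of 20 higher in the lower title range (median 0.19) and 3 in the upper (-0.19), and the xenobiotic medians were 0.14 and -0.08. Of 25 NRF2 and antioxidant genes 11 were higher (median -0.04): the thioredoxin reductase TXNRD1 differed by 0.51 ± 0.24 with overlap, and superoxide dismutase SOD1 read 10.58, 10.32, 10.42 and 10.50 in E and 10.25, 10.29, 10.19 and 10.25 in H, without overlap.

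Cytosolic ribosomal protein genes had lower means in H almost throughout: 47 of 48 were lower and 1 higher, with a median of -0.26, although 44 of them lie in the highest level class, where 63.5% were higher. At an unadjusted p under 0.05, 13 were lower and 0 higher, and 6 and 0 after median centring. RPL35A, of the large subunit, read 7.06, 7.37, 6.94 and 6.78 in E and 6.71, 6.60, 6.73 and 6.49 in H (-0.41 ± 0.15). RPS12, of the small subunit, read 10.10, 10.52, 10.21 and 10.18 in E and 9.89, 9.91, 10.01 and 9.75 in H (-0.36 ± 0.15). Neither overlapped, and RPL21 (-0.33 ± 0.14) was the third gene without overlap. The mean level of the 48 genes was 9.94, 10.37, 9.81 and 9.71 in E and 9.67, 9.71, 9.90 and 9.53 in H, so the group means did overlap: H replicate 3 lay above 2 E birds. The median was -0.47 in the lower title range and -0.05 in the upper, where 15 of the 48 were higher. Without E replicate 2 it was -0.12 and without H replicate 3 -0.35, the ends of the range over the birds left out. These genes move as a block between birds, so their number does not count independent observations.

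Nuclear genes of oxidative phosphorylation had a smaller median, -0.10, with 40 of 48 lower. It was alike in both title ranges, at -0.12 and -0.10, and -0.03 without E replicate 1. After median centring 19 of the 48 were higher, where 8 had been. UQCR11, of respiratory complex III, read 10.45, 10.33, 10.57 and 10.24 in E and 9.81, 10.14, 10.17 and 9.86 in H (-0.40 ± 0.13), and NDUFB2 (-0.36 ± 0.16) and NDUFB6 (-0.32 ± 0.14), of complex I, were likewise without overlap. No other of these genes reached an unadjusted p under 0.05. After median centring 1 of the 48 was lower at that threshold and 0 were higher.

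Genes of gut hormone cells were mostly higher in H. Enteroendocrine cells are scattered in the epithelium and pack peptide hormones with granins. Of 18 measured genes 16 were higher and 2 lower, with a median of 0.18, although 10 of them belong to the lower 2 level classes, where 33.0% and 36.9% were higher. SCG2, a granin, read 7.07, 7.17, 7.70 and 7.16 in E and 7.83, 7.71, 7.83 and 8.03 in H (0.58 ± 0.22), without overlap. GCG, the precursor of glucagon-like peptides, read 6.12, 6.21, 7.29 and 7.72 in E and 7.48, 7.26, 8.32 and 7.97 in H (0.93 ± 0.42), so within each title range both H birds lay above both E birds although the pooled groups overlapped. SCG3 differed by 0.54 ± 0.24 and the prohormone convertase PCSK1 by 0.36 ± 0.18. CHGA, a general granin, differed by 0.08 ± 0.20 and CCK by 0.25 ± 0.22. The mean level of the list was 5.97, 6.38, 6.31 and 6.32 in E and 6.53, 6.33, 6.37 and 6.59 in H, where H replicates 2 and 3 lay inside the E range. Without E replicate 1, the lowest of the 8, the median was 0.09.

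Goblet cell genes were evenly divided. Of 18 measured 9 were higher and 9 lower (median -0.04), with medians of 0.11 in the lower title range and -0.11 in the upper. MUC13, a transmembrane mucin of the epithelial surface, read 11.40, 11.33, 11.59 and 11.69 in E and 12.01, 11.91, 11.94 and 12.11 in H (0.49 ± 0.19), without overlap. MUC1, another transmembrane mucin, and GFI1, a secretory lineage factor, lay the other way without overlap, at -0.34 ± 0.14 and -0.25 ± 0.11, and the protease inhibitor SPINK5 by -0.55 ± 0.16 with overlap. The secreted mucin MUC2 differed by 0.17 ± 0.12 and AGR2, needed to fold it, by 0.11 ± 0.21. In the list of epithelial identity factors 13 of 18 were higher (median 0.03), and 15 of the 18 lie in the upper 2 level classes. Ordered by p, the list was led by MAF (0.40 ± 0.13) at low level and by HNF4G (0.41 ± 0.18). Its largest difference, 0.65, was that of KLF5, with means of 8.77 in E and 9.41 in H. EPCAM, a surface protein of all epithelial cells, differed by 0.17 ± 0.12. Of 29 tight junction and adhesion genes 13 were higher (median -0.03); MARVELD2, tricellulin, differed by 0.36 ± 0.15, and CLDN1, claudin-1, read 5.98, 6.05, 5.85 and 5.78 in E and 5.70, 5.68, 5.55 and 5.72 in H (-0.25 ± 0.12), without overlap. Of 14 calcium and phosphate genes 9 were higher (median 0.03, and -0.07 without E replicate 2), and STC2, stanniocalcin-2, differed by -0.61 ± 0.19 at low level.

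**Figure D4:**
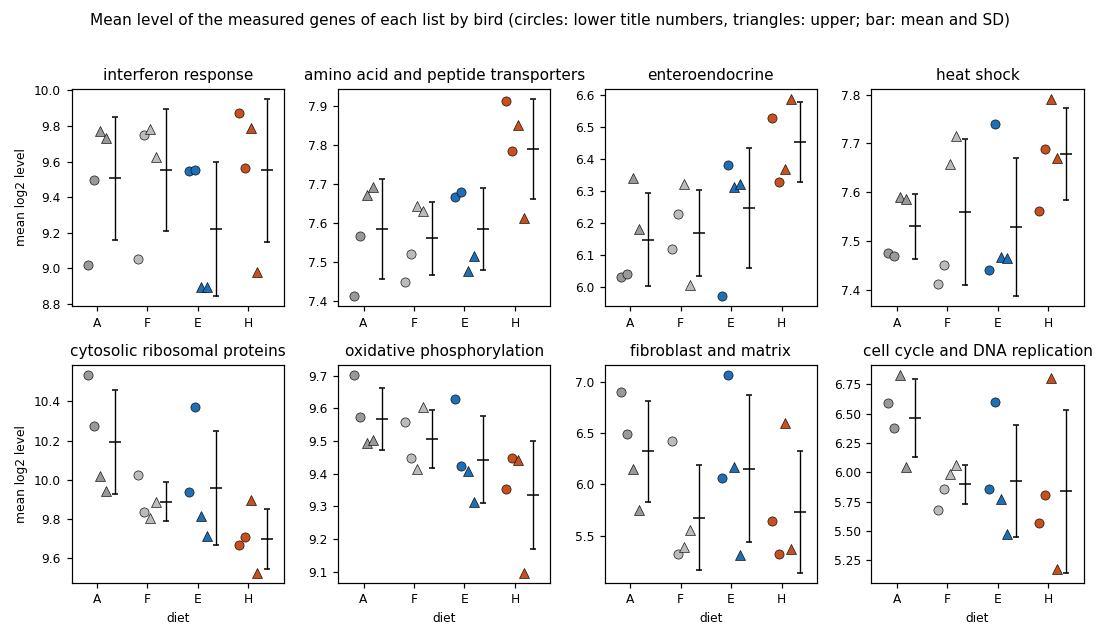
Mean log2 level of the measured genes of 8 lists in each of 16 birds by diet, with the mean and SD of 4 birds beside the points; circles carry lower title numbers and triangles upper ones. In the matrix list E replicate 2 reads 7.06 and H replicate 3 reads 6.60, above every other E and H bird.

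Genes of cells beneath the epithelium varied more between birds than between diets. Of 30 fibroblast and matrix genes 28 were lower in H, with a median of -0.48, but the median was -1.17 in the lower title range and 0.25 in the upper, where 23 of 30 were higher. It was -0.13 without E replicate 2 and -0.77 without H replicate 3. The mean level of the list was 6.06, 7.06, 6.17 and 5.31 in the E birds and 5.64, 5.33, 6.60 and 5.37 in the H birds. Of its 30 genes 22 belong to the lower 2 level classes, where 33.0% and 36.9% of all genes were higher. The collagen gene COL1A1 lay between 7.86 and 10.8 across the 8 birds. Only ELN, elastin, which read 6.61, 6.65, 6.48 and 6.58 in E and 6.04, 6.41, 5.90 and 6.43 in H (-0.39 ± 0.15), was without overlap, and COL5A1 differed by -0.48 ± 0.22 with overlap. Smooth muscle (11 of 13 lower, median -0.20) and endothelial genes (14 of 17 lower, median -0.17) had medians of -0.32 and -0.45 in the lower range and of 0.08 and 0.12 in the upper. The lower 2 level classes hold 9 of the 13 smooth muscle and 16 of the 17 endothelial genes. TPM1, a tropomyosin that epithelial cells also make, went against its list, with E birds between 8.26 and 8.62 and H birds between 8.85 and 8.93 (0.40 ± 0.15). The haemangioblast factor TAL1 (-0.46 ± 0.14) and the endothelial adhesion gene ESAM (-0.38 ± 0.15) were lower without overlap, at low level for TAL1. At an unadjusted p under 0.05, 1 of the 17 endothelial genes was higher and 2 were lower. The highest difference among the 17, 0.46, was that of PECAM1, with means of 4.80 in E and 5.26 in H.

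Dividing-cell genes behaved like the matrix list. Of 48 cell cycle and DNA replication genes 34 were lower (median -0.09), with a median of -0.46 in the lower range, where 2 were higher, and of 0.39 in the upper, where 42 were. In the lower 2 level classes, where 33.0% and 36.9% of all genes were higher, lie 35 of the 48. The pooled median was -0.43 without H replicate 3 and 0.13 without H replicate 4. Their mean level was highest in H replicate 3 and E replicate 2, at 6.80 and 6.59, and lay between 5.17 and 5.85 in the other 6 birds. CDT1, a licensing factor of DNA replication (-0.34 ± 0.13), and ESPL1, separase (-0.29 ± 0.13), were the genes at an unadjusted p under 0.05, both with overlap. The ESPL1 probe set read far above the rest of its list, with means of 11.1 in E and 10.8 in H. The means of the whole list were 5.92 and 5.84, and ESPL1 was its only gene in the highest level class. Crypt genes had 13 of 20 lower, and 13 of the 20 belong to the lower 2 level classes. Their median was -0.19, and -0.04 without E replicate 2, and -0.22 and -0.01 in the lower and upper ranges. Of these, ASCL2, a stem cell factor, differed by -0.34 ± 0.13, while LGR5, the stem cell receptor, lay under the arrays' lower quartiles in most birds (-0.45 ± 0.23). The crypt marker OLFM4 had the lowest difference of the list, -1.23 ± 1.11, and varied widely between birds. It read 9.46, 10.94, 8.51 and 4.52 in E and 6.41, 6.45, 9.73 and 5.95 in H.

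Among immune cell lists, 16 of 22 T and NK cell genes were lower (median -0.15), 16 of 20 macrophage and dendritic genes (median -0.11) and 9 of 10 heterophil genes (median -0.13). In the list of B lymphocytes and plasma cells, called B cell genes here, 9 of 14 were higher (median 0.10). These medians moved with single birds: that of T and NK cells was -0.03 without H replicate 4, that of macrophages 0.00 and that of heterophils -0.04 without E replicate 2, and that of B cells -0.06 without H replicate 3. In the lower and upper title ranges the macrophage medians were -0.26 and 0.20 and the B cell medians -0.10 and 0.33. The T and NK cell medians were -0.11 and -0.17 there and the heterophil medians -0.13 and -0.11. In the lower 2 level classes 33.0% and 36.9% of all genes were higher. They hold 5 of the 22 T and NK cell genes, 11 of the 20 macrophage, 9 of the 10 heterophil and 9 of the 14 B cell genes. The upper 2 level classes, where 59.5% and 63.5% of all genes were higher, hold 17 of the 22 T and NK cell genes. At an unadjusted p under 0.05, 0 of the 14 B cell genes were higher and 1 was lower. The lowest difference among the 14, -1.06, was that of JCHAIN, with means of 10.90 in E and 9.84 in H, but JCHAIN was not at that threshold. CD3D, a chain of the T cell receptor complex, lay between 8.79 and 9.02 in E and read 8.64, 8.65, 8.69 and 8.12 in H (-0.42 ± 0.21), without overlap. Of the other T cell markers, CD3E (-0.20 ± 0.19) and CD8A (-0.41 ± 0.31) were lower and CD4 (0.52 ± 0.34) was higher, all with overlap. The lymphocyte chemokine XCL1 was also higher, at 0.77 ± 0.29 with overlap. The granulocyte genes CSF3R (-0.46 ± 0.17) and EPX, eosinophil peroxidase (-0.49 ± 0.16), were lower without overlap, and the latter read 4.15 to 5.32. The complement gene C1QC, of macrophages, followed the birds: it was 10.8 in E replicate 2 and between 7.59 and 9.09 in the other E birds. Levels of other tissues were low: 12 of 12 pancreatic acinar genes and 16 of 20 liver genes lay in the lower 2 level classes, with medians of -0.10 and -0.21. PNLIPRP1, a pancreatic lipase relative, differed by -0.47 ± 0.14 at 2.83 to 3.62. Of 11 erythrocyte genes 8 were lower (median -0.19), and of 20 enteric neuron, glia and interstitial cell genes 13 (median -0.11). The lower 2 level classes hold 8 of the 11 and 18 of the 20. In the list of segment markers 7 of 17 were higher (median -0.07), and HOXD13, HOXC9, HOXA9 and PDX1 were lower at an unadjusted p under 0.05, by -0.37 ± 0.12, -0.51 ± 0.18, -0.36 ± 0.15 and -0.38 ± 0.18. The HOXC9 means, 3.98 in E and 3.47 in H, lie under the arrays' lower quartiles, and the HOXD13 means were 4.70 and 4.33. For 1 of the 17 genes all H birds lay below all E birds. In the clock list 8 of 13 were higher (median 0.13), with no gene at an unadjusted p under 0.05, and E replicate 2 set that direction: without it the median was -0.15, and it was 0.24 in the lower title range and -0.09 in the upper. The part of cell composition in the differences of other lists was not tested.

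**Figure D5:**
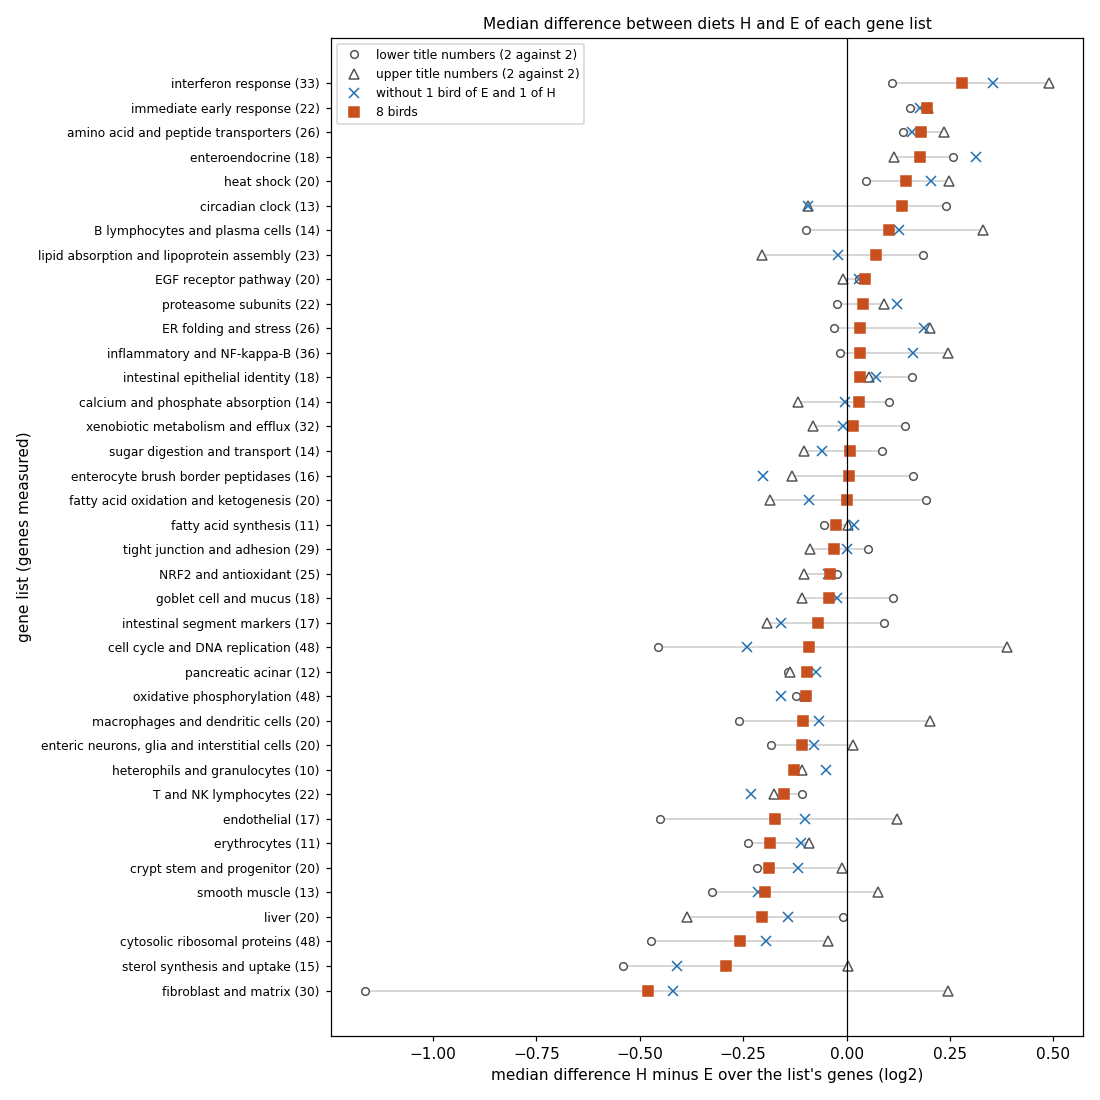
Median difference H minus E (log2) of each of 38 gene lists, with the number of genes measured in brackets; squares give all 8 birds, circles and triangles the 2 against 2 birds of the lower and upper title numbers, and crosses the fit without E replicate 2 and H replicate 3. The matrix list spans -1.17 to 0.25 between the ranges, while the amino acid transporter list spans 0.14 to 0.24.

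The ranges were compared directly by the interaction of diet with title range. No probe set passed the adjusted threshold (0 of 20804, 0%; smallest adjusted p 0.501, limma), and 1111 had an unadjusted p under 0.05, or 5.34%. Within the lower range alone 0 probe sets passed and 2510 had an unadjusted p under 0.05, and within the upper 0 and 1601. Of the 1048 genes at an unadjusted p under 0.05 in the pooled comparison, 1044 had the same sign in both ranges, which the pooled selection itself favours.

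With both E replicate 2 and H replicate 3 left out, 0 probe sets passed and 1175 had an unadjusted p under 0.05. The matrix median was -0.42 and the cell cycle median -0.24 in these birds. The interferon median was 0.35, the enteroendocrine median 0.31, the ribosomal protein median -0.20 and the amino acid transporter median 0.16. PURG differed by 0.68 (limma, adjusted p = 0.871).

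Genes that other comparisons of these birds had singled out were looked up in all of them. TMEM86A, which breaks down lysoplasmalogens in mammals, read 10.81, 10.23, 9.91 and 9.96 in E and 9.72, 10.50, 10.21 and 10.34 in H, overlapping (-0.04 ± 0.26), while its mean was 8.92 in A and 10.02 in F. Among 15 genes of plasmalogen, purine-rich element and pyrimidine metabolism 10 were higher and 5 lower (median 0.09). DPYS, an enzyme of pyrimidine breakdown, read 5.37, 5.07, 5.21 and 5.58 in E and 4.61, 4.94, 4.77 and 4.80 in H, a difference of -0.53 ± 0.15 without overlap. FAR1, which makes the fatty alcohols for plasmalogens, differed by 0.42 ± 0.23 and read 7.33 in H replicate 3 against 6.28 to 6.46 in the other H birds.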

How the data were processed

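Jejunal RNA of each of 16 male broilers was converted by a whole-transcript kit, labelled with biotin and read on an array of its own, per the labels' protocols. Scanner software GCOS 1.1.1 is named per the submitters' processing notes; how probes were summarized and normalized, and which logarithm was taken, is not given in the sources used here. As deposited by the authors, the values run from 0.785 to 14.5 with array medians of 5.94 to 6.10, and were taken as log2 expression values and used unchanged. Depth is not defined for arrays: the number of birds limits precision.

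Of 20804 probe sets 12300 carried 1 gene symbol in the platform annotation, 256 several and 8248 none. 11727 of their Entrez identifiers were found in the RefSeq gene table, with 0 differing symbols. For each of 11528 genes the probe set with the highest mean over 16 arrays was used. A total of 1644 probe sets held values identical to another's. The values of 16 arrays were modelled by diet in limma 3.58.1 (R 4.3.3; lmFit, eBayes). The p-values of H minus E were adjusted across the 20804 probe sets (Benjamini-Hochberg), and 0.05 was the threshold. The model was tested on simulated data. Figures were drawn in matplotlib 3.10.9.

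Genes named were the 12 with the smallest p and the 6 with the largest difference at an unadjusted p under 0.05 in each direction, members of each list with the smallest p and its defining members, and SLC5A1, SLC15A1, PURG, TMEM86A and ERRFI1. TLR2A, RPL21, MX1, EPCAM, KLF5, PECAM1, JCHAIN, C1QC, TMPRSS15 and SLC2A5 were named after their values were seen. The 39 gene lists, of which 1 was taken from earlier results, and the comparison itself were chosen with earlier results of these data known, so lists are described by counts and medians with no test. Alternatives were 2 other normalizations, a filter on low probe sets, removal of duplicates, other moderation, title numbers as block, covariate or random block, and leaving out birds; leaving out E replicate 2 and H replicate 3 together, and list counts after median centring, were chosen after seeing the data.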

Additional observations from a re-analysis of the deposited data

Results flagged for a closer look

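In 15 of 264 sets of 4 birds examined (2 diets for each of 125 genes and 7 list means), the highest or lowest bird lay farther from its nearest neighbour, as a share of the whole range, than Dixon's 95% critical value for 4 samples allows. Chance flags about 1 in 20 such sets. For each bird the values of the other 3 stand in brackets.

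Among E birds, replicate 1 read 7.50 for HSPA4 (others 7.85 to 7.92) and 10.8 for FDFT1 (others 9.48 to 9.70), and it was lowest for the mean level of the enteroendocrine list, at 5.97 (others 6.31 to 6.38), and highest for that of the sterol list, at 9.99 (others 9.40 to 9.50). E replicate 2 read 10.7 for RPL21 (others 10.29 to 10.33), 6.63 for GFI1 (others 6.85 to 6.86) and 4.46 for SLC10A2 (others 2.89 to 3.08). E replicate 3 read 3.87 for DLG2 (others 4.24 to 4.28), 7.70 for SCG2 (others 7.07 to 7.17) and 8.79 for CD3D (others 8.998 to 9.02).

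Among H birds, replicate 1 read 7.88 for ASPA (others 7.45 to 7.48) and 12.9 for EPCAM (others 12.72 to 12.75). H replicate 3 read 6.30 for COL5A1 (others 5.74 to 5.82) and 6.48 for HOXA9 (others 6.94 to 7.03), and H replicate 4 read 8.12 for CD3D (others 8.64 to 8.69).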

How the results depend on the processing

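The count of probe sets past the adjusted threshold was 0 in each alternative run, the fits that left out 1 bird included, and the smallest adjusted p ranged from 0.0951 (without H replicate 4) to 0.871 (without E replicate 2 and H replicate 3 together, limma). The count at an unadjusted p under 0.05 was 1302 when pairs of birds with adjacent title numbers shared a random effect (correlation 0.173) and 1175 without E replicate 2 and H replicate 3, both lower by over 1.5 times, and 2903 with the title range as a block, while leaving out 1 bird gave 1495 to 2480. The number of the 39 lists with a median above 0 was 19, and 12 to 19 with 1 bird left out, the lowest without E replicate 2. Of 2111 values of single genes under an alternative, 2093 kept their sign, and 0 genes passed the adjusted threshold in any. Those that turned sign were small differences apart from DPP4 (0.38 over all 8 birds), which rests on E replicate 2. SLC5A1 was -0.025 and SLC15A1 -0.088 with title number as a covariate, TMEM86A was 0.019 after median centring, and without E replicate 2 and H replicate 3 SLC5A1 was -0.030, SLC15A1 -0.023 and DPP4 -0.092. With 1 bird left out the ranges were -0.036 to 0.15 for SLC5A1, -0.056 to 0.13 for SLC15A1, -0.14 to 0.16 for TMEM86A, -0.029 to 0.65 for DPP4, -0.045 to 0.19 for CHGA and -0.055 to 0.29 for AGR2. The cause of these shifts was not tested. The labels give no replicate numbers that the diets share, so single birds could not be paired, and the title range as a block and adjacent title numbers as a random effect stand in for it. The number of birds limits the precision, and genes under the arrays' lower quartiles have the least signal over background.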
